A study of Mus musculus with 12 samples.

Results

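The MHC class I and antigen processing genes are 10 mouse genes chosen by name: the heavy chains H2-K1, H2-D1, H2-Q7 and H2-T23, the light chain B2m, the loading genes Tap1, Tap2 and Tapbp, the regulator Nlrc5, and Cd1d1. All 10 had a row in the deposited table of 14004 genes, and all 10 passed the filter on low values that left 13058 genes for testing. They were measured by RNA-seq in sorted iNKT1 cells, the invariant natural killer T cells that express the transcription factor T-bet, in 4 groups of 3 libraries. The cKO thymus and cKO liver groups came from mice with Tbx21Cre, Rosa26-YFP+ and Ets1F/F, in which the Cre driven by the T-bet gene deletes Ets1. The control thymus and control liver groups came from mice with Tbx21Cre and Rosa26-YFP+, so the Cre and the YFP reporter are shared by every group and only the floxed Ets1 alleles differ. Cells were sorted as CD1d-tetramer+ and YFP+. The labels give neither the age, sex and strain of the mice nor whether libraries were pools of animals.

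Class I molecules carry peptides made inside the cell to its surface, where CD8 T cells and natural killer cells read them. Proteasomes cut the peptides, the TAP1 and TAP2 transporter moves them into the endoplasmic reticulum, and tapasin (Tapbp) holds the empty heavy chain with beta-2 microglobulin (B2m) at the transporter until a peptide is bound. NLRC5 is the transactivator that raises transcription of these genes in lymphocytes, and interferon-gamma raises them further. CD1D, encoded in the mouse by Cd1d1, also pairs with B2m but presents lipids, and it is the molecule on which iNKT cells are selected in the thymus.

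On GRCm38, which mm10 also names, 7 of the 10 genes lie on chromosome 17, within the MHC, and all 10 are annotated as protein coding. The heavy chain genes are H2-K1 (ENSMUSG00000061232) at 17:33996017-34000347 on the minus strand, H2-D1 (ENSMUSG00000073411) at 17:35262730-35267499 on the plus strand, H2-Q7 (ENSMUSG00000060550) at 17:35439155-35443773 on the plus strand and H2-T23 (ENSMUSG00000067212) at 17:36029773-36032855 on the minus strand. In the same complex, on the plus strand, lie Tapbp (ENSMUSG00000024308) at 17:33915899-33929292, Tap1 (ENSMUSG00000037321) at 17:34187553-34197225 and Tap2 (ENSMUSG00000024339) at 17:34203527-34216321. B2m (ENSMUSG00000060802) is at 2:122147686-122153083 on the plus strand. Nlrc5 (ENSMUSG00000074151) is at 8:94434356-94527272 on the plus strand and Cd1d1 (ENSMUSG00000028076) at 3:86995834-86999441 on the minus strand.

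The promoters of the genes that dominate the pathway's RNA are shown because they share a known layout. Class I promoters carry an X2 and Y box module, through which NLRC5 and its partners act, and an upstream stretch with a kappa B site and an interferon-stimulated response element (ISRE). RefSeq promoter windows of 300 bases (250 before the start and 50 after it, GRCm38.p6) were matched for 7 of the 10 genes; Tap2, Nlrc5 and Cd1d1 are named only. The 180 bases before the start are printed 5′ to 3′ for H2-K1 (17:34000348-34000527, minus strand), H2-D1 (17:35262914-35263093, plus strand), H2-Q7 (17:35438975-35439154, plus strand) and B2m (2:122147507-122147686, plus strand). Capitals mark GGGATTCCC (kappa B), GAAANNGAA or GAANNGAAA (ISRE core in either order), TGACG (X2 box core) and CCAAT (Y box core), each on either strand, so that ATTGG is CCAAT on the other strand.
H2-K1: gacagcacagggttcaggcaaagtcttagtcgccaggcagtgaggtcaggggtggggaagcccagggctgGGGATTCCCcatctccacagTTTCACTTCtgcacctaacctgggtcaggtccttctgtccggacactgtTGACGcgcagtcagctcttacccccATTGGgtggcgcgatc
H2-D1: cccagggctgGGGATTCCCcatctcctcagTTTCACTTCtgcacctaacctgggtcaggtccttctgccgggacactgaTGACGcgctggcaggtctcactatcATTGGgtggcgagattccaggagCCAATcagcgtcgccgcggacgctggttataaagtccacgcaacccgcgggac
H2-Q7: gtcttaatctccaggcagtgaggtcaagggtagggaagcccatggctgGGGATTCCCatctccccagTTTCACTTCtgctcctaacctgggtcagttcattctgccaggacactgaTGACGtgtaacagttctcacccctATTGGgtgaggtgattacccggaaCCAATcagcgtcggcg
B2m: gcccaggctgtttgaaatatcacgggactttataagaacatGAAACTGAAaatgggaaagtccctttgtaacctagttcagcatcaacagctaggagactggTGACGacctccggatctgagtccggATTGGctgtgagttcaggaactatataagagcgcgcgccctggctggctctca

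In all 4 printed promoters a TGACG stood 24 or 25 bases before an ATTGG, measured from start to start. In H2-K1 these lay at positions -41 and -16 from the start, in H2-D1 at -101 and -76, in H2-Q7 at -64 and -40, and in B2m at -78 and -53. A TGACG followed by an ATTGG 20 to 30 bases on, a spacing set after the sites had been seen, was present in 143 of 32851 RefSeq mouse promoters of the same length (0.435%) and in 4 of the 7 matched here. TGACG alone was in 20.8% of those promoters and CCAAT alone in 37.4%. The 3 heavy chain promoters also held GGGATTCCC (0.353% of promoters) ahead of TTTCACTTC, a GAANNGAAA on the other strand (7.52% of promoters), both motifs added after the sequences had been read. GAAANNGAA (8.56% of promoters) was found in B2m at -139 and in H2-T23 at -123. CCGGAAG, an ETS core, was in 8.86% of promoters and in none of the 7 windows, which says only that these letters are not there. The first windows of H2-K1 and H2-Q7 were 68.2% identical in a global alignment, H2-D1 and H2-Q7 64.3%, and H2-K1 and H2-D1 59.3%.

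The libraries differed in depth and in a few signs of quality that touch these genes. Recovered reads per library ranged from 18.5 M to 43.4 M (M, 1e6) in 10 libraries, while cKO liver 2 had 3.21 M and control liver 3 had 3.87 M. Control thymus 1 and 2 stood apart, with 3528 and 2824 genes without a read, against 1415 to 2176 in the cKO thymus libraries and 1782 in control thymus 3. Ets1, the deleted gene, fell in cKO cells of each tissue (limma adjusted p 0.0095 in thymus and 0.0012 in liver). Its adjusted read count was 11817, 7069 and 5788 in cKO thymus against 23692, 28051 and 19493 in control thymus, and 3594, 4425 and 5787 in cKO liver against 18773, 18528 and 15910 in control liver. The summed value of 10 iNKT1 and T cell markers was 144000 to 162000 in cKO thymus, 127000 to 161000 in control thymus, 122000 to 157000 in cKO liver and 155000 to 174000 in control liver. As these are bulk samples, fewer cells of a type and less RNA per cell cannot be told apart.

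iNKT1 cells of every group carried much B2m and heavy chain RNA and little Cd1d1 RNA. Per kilobase of exon, the mean adjusted read count of B2m was 116600 in cKO thymus, 127300 in control thymus, 158600 in cKO liver and 182500 in control liver. H2-K1 and H2-D1 came next in every group, between 9212 and 17490 per kilobase, and their libraries overlapped except in control liver, where every H2-K1 value was above every H2-D1 value. H2-Q7, a nonclassical heavy chain of the Qa-2 type, followed at 2236 to 4413 per kilobase, and its libraries overlapped those of the next gene only in control thymus, with Tap1. Below it, Tapbp, Tap1, Nlrc5 and H2-T23 lay between 425.2 and 1074 per kilobase, and neighbours in that order overlapped between libraries except H2-T23 and Tap1 in cKO liver. Tap2 had 135.8 to 341.1 per kilobase, and Cd1d1 was lowest in every group, at 29.56 to 169.9 per kilobase, overlapping Tap2 in each thymus group and in neither liver group. Together the 10 genes took between 0.541% of a library's values (control thymus 2) and 1.24% (control liver 2).

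**Figure D1:**
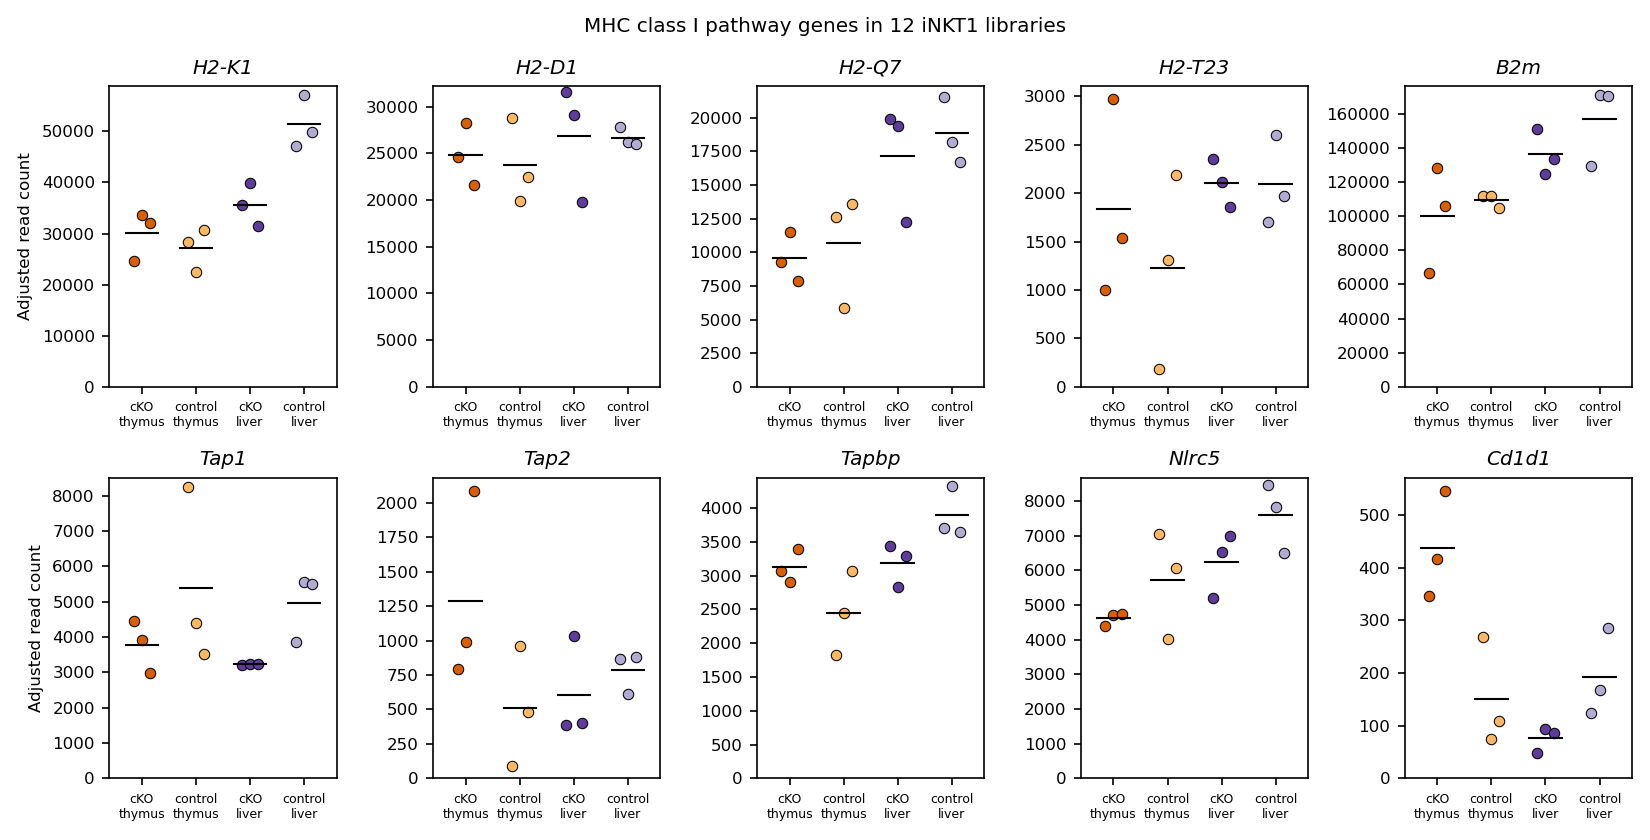
Adjusted read count (y axis, linear from 0) of each of the 10 genes in the 12 libraries, in the order cKO thymus, control thymus, cKO liver, control liver. Points are libraries and bars are means of 3; H2-K1 in control liver (47207 to 57141) lies above all other groups, and Cd1d1 is highest in cKO thymus (347.0 to 546.1).

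Deletion of Ets1 left no class I pathway gene past the threshold in either tissue. Of the 10 genes, limma called 0 at an adjusted p below 0.05 in thymus, where 0.636% of all tested genes were called, and 0 in liver, where 0.505% were. These shares depend on fitting all 4 groups together. In fits on the groups compared alone, 0 of 13058 tested genes were called in thymus and 292 in liver, with 0 of the 10 genes in either. At an unadjusted p below 0.05 in thymus, limma gave 1 of the 10 genes (Tap2) and 13.2% of all tested genes, edgeR 0 and 13.2%, and DESeq2 0 and 16.3%. At that p in liver, limma gave 1 of the 10 genes (H2-K1) and 6.92% of all tested genes, edgeR 1 and 6.54%, and DESeq2 1 and 7.97%. Neither edgeR nor DESeq2 called any of the 10 after adjustment. The median log2 fold change, cKO against control, was 0.11 for the 10 genes and 0.24 for all tested genes in thymus. In liver it was -0.29 for the 10 genes, 9 of them negative, and 0.02 for all tested genes; the signs of H2-D1, H2-Q7 and H2-T23 turned in some alternatives. TMM scaling moved the median of all tested genes in thymus to -0.03 and left it at 0.01 in liver. In thymus, 1 of the 10 genes was higher in every cKO library than in any control library (7.6% of all tested genes) and 0 were lower in every one (6.89% of all). In liver, 0 were higher in every cKO library (9.99% of all tested genes) and 4 were lower in every one (8.66% of all), namely H2-K1, Tap1, Tapbp and Cd1d1.

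H2-K1 encodes the classical heavy chain K. In liver its adjusted read count was 35522, 39942 and 31481 in the cKO libraries, against 47207, 57141 and 49813 in the control libraries. Every cKO liver library was below every control liver library. The log2 fold change was -0.53 ± 0.18 (SE; fold 0.693, 95% interval 0.533 to 0.9), with an unadjusted limma p of 0.0085 and an adjusted p of 0.32, so it did not pass over all genes. Over 23 alternatives it lay between -0.64 and -0.44 with adjusted p between 0.14 and 0.86. In thymus H2-K1 had 24561, 33625 and 32020 in the cKO libraries and 28425, 22561 and 30646 in the control libraries, which overlap (log2 fold change 0.14 ± 0.18 (SE)). Single genes listed as markers of other cells had lower values in cKO liver too. Mmp9, the 1 of 4 listed neutrophil markers in the table, was 0 to 1.16 in cKO liver and 3030 to 3580 in control liver. Pecam1, the 1 of 5 listed endothelial markers in the table, was 1.16 to 88 in cKO liver and 458 to 671 in control liver. The other listed markers had no row, so neither gene alone tells whether such cells were present. The part of such cells in the H2-K1 values was not tested.

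H2-D1 encodes the other classical heavy chain, D, and its values overlapped between the genotypes in each tissue. In liver it had 31638, 29082 and 19752 in the cKO libraries and 27799, 26202 and 26043 in the control libraries. The log2 fold change there was -0.02, with a 95% interval of -0.45 to 0.41. In thymus the cKO libraries had 24637, 28258 and 21638 and the control libraries 28834, 19935 and 22507, and the log2 fold change was 0.07 with a 95% interval of -0.36 to 0.5.

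H2-Q7 and H2-T23 encode nonclassical heavy chains, H2-T23 the Qa-1 molecule read by CD94 and NKG2A. H2-Q7 had 19915, 19348 and 12253 in cKO liver against 21560, 18192 and 16716 in control liver, and 9235, 11527 and 7844 in cKO thymus against 12616, 5882 and 13604 in control thymus. Both pairs of groups overlap, and the 95% intervals of the log2 fold change ran from -0.78 to 0.46 in liver and from -0.71 to 0.53 in thymus. H2-T23 had 1004, 2968 and 1533 in cKO thymus and 183.9, 1311 and 2190 in control thymus. Its log2 fold change in thymus was 1.04 ± 0.68 (SE) and was -0.03 without control thymus library 1. In liver H2-T23 had 2355, 2119 and 1855 in the cKO libraries and 1702, 2600 and 1969 in the control libraries.

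B2m encodes the light chain that every class I and CD1 molecule needs. It had 66874, 128062 and 105854 in cKO thymus against 112060, 111837 and 104546 in control thymus, and 150994, 124476 and 133713 in cKO liver against 129669, 171040 and 170195 in control liver. The groups overlap in each tissue. The log2 fold changes were -0.18 in thymus (95% interval -0.56 to 0.2) and -0.2 in liver (95% interval -0.58 to 0.19).

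Tap1 had lower mean values in cKO cells of each tissue, but neither difference passed the test. In liver the 3 cKO libraries lay close together at 3208, 3232 and 3250, below the control libraries at 3861, 5572 and 5487 (log2 fold change -0.6 ± 0.34 (SE), limma adjusted p 0.85). In thymus Tap1 had 4448, 3921 and 2986 in the cKO libraries and 8253, 4407 and 3516 in the control libraries, which overlap (log2 fold change -0.43 ± 0.34 (SE), and -0.08 without control thymus library 1). Over both tissues its log2 fold change was -0.52 ± 0.24 (SE), with an unadjusted limma p of 0.045 and an adjusted p of 0.35, and it was -0.34 without control thymus library 1.

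Tap2 encodes the partner of TAP1 in the transporter, and its mean was higher in cKO thymus and lower in cKO liver than in control cells, with neither difference passing the test. In thymus it had 793.5, 990.5 and 2085 in the cKO libraries and 91.95, 964.4 and 483.9 in the control libraries. The log2 fold change there was 1.75 ± 0.79 (SE), with an unadjusted limma p of 0.039 and an adjusted p of 0.34. Without control thymus library 1, whose value rests on 82 reads, it was 0.79. In liver Tap2 had 386.0, 1033 and 399.5 in the cKO libraries and 864.7, 614.5 and 878.6 in the control libraries.

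Tapbp, encoding tapasin, had 3440, 2832 and 3291 in cKO liver, all below the 3713, 4329 and 3646 of control liver. The log2 fold change was -0.29 with a 95% interval of -0.97 to 0.39. In thymus the cKO libraries had 3064, 2914 and 3392 and the control libraries 1833, 2454 and 3072, which overlap. Nlrc5, encoding the transactivator, had 4398, 4704 and 4743 in cKO thymus and 7045, 4026 and 6057 in control thymus, and 5208, 6536 and 6974 in cKO liver and 8452, 7816 and 6499 in control liver. Its log2 fold change was -0.27 ± 0.28 (SE) in thymus, where TMM scaling put it at -0.57, and -0.28 ± 0.28 (SE) in liver. Neither passed the test.

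Cd1d1 pointed in opposite directions in the 2 tissues. In thymus it had 347.0, 416.8 and 546.1 in the cKO libraries, all above the 267.9, 75.2 and 109.1 of the control libraries (log2 fold change 1.71 ± 1.06 (SE), limma adjusted p 0.51). In liver it had 47.25, 94.55 and 86.07 in the cKO libraries, all below the 124.4, 168.2 and 284.7 of the control libraries (log2 fold change -1.31 ± 1.06 (SE), limma adjusted p 0.99). These values rest on 338 to 741 reads in cKO thymus, 65 to 239 in control thymus, 14 to 100 in cKO liver and 47 to 196 in control liver. Immature thymocytes carry much CD1D, and the summed value of 4 of their 6 markers in the table was 2360 to 3430 in cKO thymus and 144 to 1040 in control thymus, mostly Themis. Of the other 3, Rag1 averaged 55.7 in cKO thymus and 162 in control thymus, Dntt 43.2 in cKO thymus and 3.77 in control thymus, and Cd8b1 59.9 in cKO thymus and 15.2 in control thymus. In liver, the summed value of 4 B cell markers was 3.8 to 98.9 in the cKO libraries and 1.69 to 747 in the control libraries. The part of these cells in the Cd1d1 values was not tested.

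**Figure D2:**
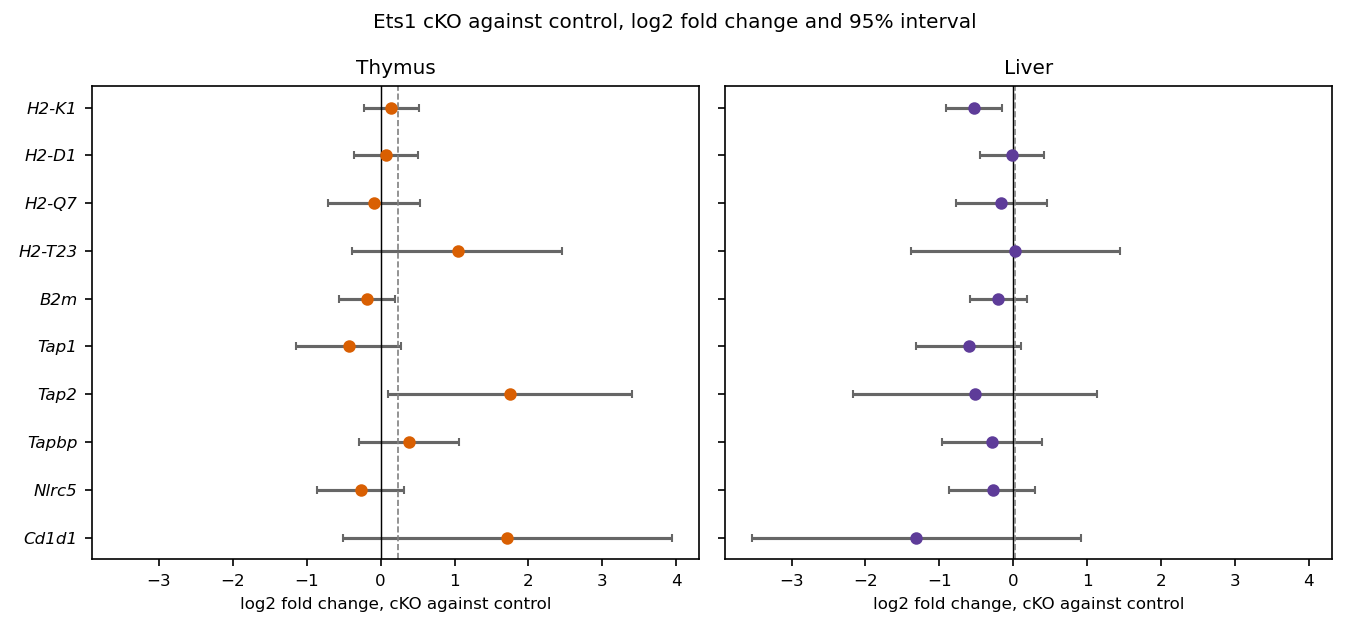
Log2 fold change, cKO against control (x axis), of each of the 10 genes in thymus (left) and liver (right), with 95% intervals from limma; the dashed line is the median of all tested genes. In liver 9 of the 10 points lie below 0, and only the interval of H2-K1 (-0.91 to -0.15) leaves out 0; in thymus only that of Tap2 (0.1 to 3.4) does.

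Taking both tissues in a single contrast, limma called 0 of the 10 genes while it called 2.27% of all tested genes; edgeR and DESeq2 also called 0. At an unadjusted p below 0.05, limma, edgeR and DESeq2 each gave 1 of the 10 genes, against 13.7%, 13.5% and 15.7% of all tested genes. With TMM scaling, limma gave 4 of the 10 at that p, against 1866 of 13041 tested genes, and still called 0 after adjustment. The test of whether the cKO effect differed between liver and thymus also gave 0 calls among the 10 genes, against 0.00766% of all tested genes, with 0 calls by edgeR and DESeq2. At an unadjusted p below 0.05, limma, edgeR and DESeq2 each gave 1 of the 10 for this difference, against 5.38%, 6.1% and 8.07% of all tested genes. For H2-K1 that difference, liver minus thymus, was -0.67 ± 0.25 (SE) on the log2 scale, with an unadjusted limma p of 0.016 and an adjusted p of 0.91. For Cd1d1 it was -3.02 with a 95% interval of -6.17 to 0.13, and for Tap2 -2.26 with a 95% interval of -4.6 to 0.07. The median of this difference was -0.42 for the 10 genes and -0.2 for all tested genes, and TMM scaling moved the median of all tested genes to 0.07.

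Liver cells carried more H2-K1 RNA than thymus cells in control mice. The control liver libraries had 47207, 57141 and 49813 and the control thymus libraries 28425, 22561 and 30646. All liver libraries were above all thymus libraries, with a fold of 1.9 (95% interval 1.46 to 2.47; log2 fold change 0.92 ± 0.18 (SE), limma adjusted p 0.019). H2-K1 was the 1 of 10 genes called in this contrast, where 0.605% of all tested genes were called. The median of all tested genes was itself 0.28, so H2-K1 lay 0.64 above it. The call was kept by DESeq2 (0.9, adjusted p 0.0079) and lost with TMM scaling (0.61, adjusted p 0.13), which moved that median to -0.01, with edgeR on recovered reads (0.91, adjusted p 0.071), and with a limma fit on the control groups alone (0.92, adjusted p 0.14). It was also lost without control thymus library 2 (adjusted p 0.063), without control liver library 1 (0.057), 2 (0.15) or 3 (0.084), without both libraries of low depth (0.15), and without control thymus libraries 1 and 2 together (0.74, adjusted p 0.41). The log2 fold change stayed between 0.61 and 1.02 over 23 alternatives. Markers of other cells moved with the same contrast: the summed value of 4 hepatocyte markers was 1250 to 1710 in control liver and 0.0795 to 270 in control thymus, and Pecam1 averaged 584 in control liver and 197 in control thymus. Mmp9 was 3030 to 3580 in control liver and 0.0213 to 2.55 in control thymus. As said above, Mmp9 and Pecam1 were the only listed markers of their cell types in the table. The summed value of 4 immature thymocyte markers was 3710 to 5800 in control liver and 144 to 1040 in control thymus. That sum was mostly Themis, which averaged 4560 in control liver and 545 in control thymus. Rag1 and Dntt went the other way, at 0.272 and 0.21 in control liver and 162 and 3.77 in control thymus. Cd8b1 averaged 21 in control liver and 15.2 in control thymus. The summed value of 4 B cell markers was 1.69 to 747 in control liver and 0.0843 to 0.176 in control thymus. The part of other cells in the H2-K1 values was not tested.

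In control cells, 4 of the 10 genes were higher in every liver library than in any thymus library (9.55% of all tested genes), and 0 were lower in every one (5.83%). Besides H2-K1 these were H2-Q7, B2m and Tapbp. Limma gave the same 4 genes at an unadjusted p below 0.05, and 12.7% of all tested genes. For edgeR these numbers were 4 and 12.1%, and for DESeq2 3 and 14.7%. With TMM scaling limma gave 1 of the 10 at that p, against 1855 of 13041 tested genes. The median log2 fold change was 0.6 for the 10 genes, 9 of them positive, and 0.28 for all tested genes. H2-Q7 had 21560, 18192 and 16716 in control liver and 12616, 5882 and 13604 in control thymus (log2 fold change 0.9 ± 0.29 (SE), limma adjusted p 0.2). The log2 fold change of B2m was 0.51 ± 0.18 (SE; limma adjusted p 0.24) and that of Tapbp 0.69 ± 0.32 (SE; limma adjusted p 0.39). With TMM scaling these 3 values were 0.59 for H2-Q7, 0.2 for B2m and 0.38 for Tapbp, and H2-Q7 was 0.51 without control thymus library 2. H2-D1, at 26043 to 27799 in control liver and 19935 to 28834 in control thymus, gave 0.18 ± 0.21 (SE).

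In cKO cells the liver and thymus values of H2-K1 overlapped: 35522, 39942 and 31481 in cKO liver, and 24561, 33625 and 32020 in cKO thymus (log2 fold change 0.25 ± 0.18 (SE), limma adjusted p 0.86). Limma called 0 of the 10 genes between the tissues in cKO cells, against 0.222% of all tested genes, and edgeR and DESeq2 also called 0. At an unadjusted p below 0.05, limma gave 3 of the 10 genes (H2-Q7, B2m and Cd1d1) and 7.6% of all tested genes, edgeR 3 and 7.43%, and DESeq2 2 and 8.98%. Here 2 genes, H2-Q7 and Nlrc5, were higher in every liver library (8.81% of all tested genes), and Cd1d1 was lower in every one (7.26%). H2-Q7 had a log2 fold change of 0.83 ± 0.29 (SE), near its value in control cells. Cd1d1 had 47.25, 94.55 and 86.07 in cKO liver and 347.0, 416.8 and 546.1 in cKO thymus (log2 fold change -2.54 ± 1.06 (SE), limma adjusted p 0.56). That the tissue difference of H2-K1 passed in control cells and not in cKO cells does not show that it differs between them; the test of that difference is the -0.67 given above, whose adjusted p was 0.91.

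**Figure D3:**
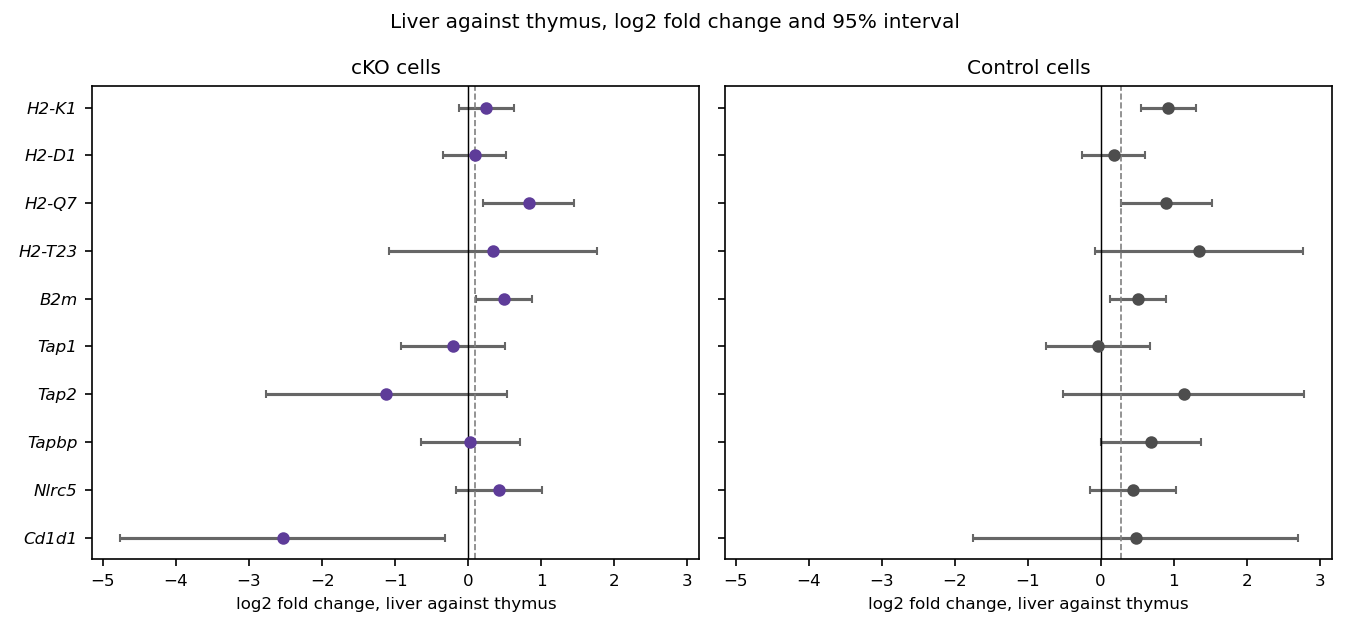
Log2 fold change, liver against thymus (x axis), of each of the 10 genes in cKO cells (left) and control cells (right), with 95% intervals from limma; the dashed line is the median of all tested genes. H2-K1 is at 0.25 in cKO cells and 0.92 in control cells, H2-Q7 at 0.83 in cKO cells and 0.9 in control cells, and B2m at 0.49 in cKO cells and 0.51 in control cells.

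The balance of the classical heavy chains can be read within each library, where a scaling factor common to all genes cancels. The ratio of H2-K1 to H2-D1 adjusted read counts was 1.12, 1.37 and 1.59 in cKO liver and 1.7, 2.18 and 1.91 in control liver. In thymus it was 0.997, 1.19 and 1.48 in the cKO libraries and 0.986, 1.13 and 1.36 in the control libraries. The control liver libraries were above all 9 others, whose groups overlap one another. This ratio was picked after the values had been seen, so it is given with no test. Of the 50-base words in the transcripts, 9.63% of those of H2-K1 and 12.8% of those of H2-D1 also occur in other genes, and no source used here says how the authors counted reads that fit several genes.

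**Figure D4:**
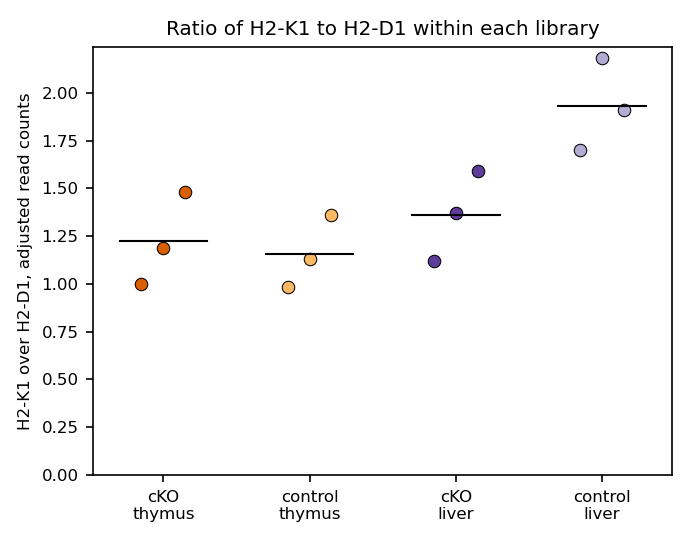
Ratio of the adjusted read counts of H2-K1 and H2-D1 within each library (y axis, from 0), for cKO thymus, control thymus, cKO liver and control liver; points are libraries and bars are means of 3. The control liver points (1.7 to 2.18) lie above all others.

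The 10 genes differed in how far they varied within their groups. The within-group SD of log2(value + 1) was 0.2 for H2-K1, 0.22 for Tapbp, 0.25 for H2-D1, 0.26 for Nlrc5 and 0.28 for B2m, and at least 97.7% of tested genes varied more than each of these. Each of these genes also had a higher mean than at least 90.7% of tested genes, and genes of like mean were not compared. The SD was 0.38 for Tap1, 0.42 for H2-Q7 and 0.64 for Cd1d1, and reached 1.03 for Tap2 and 1.04 for H2-T23. Shared sequence was highest for H2-Q7, with 26.5% of its 50-base words in other genes (14% in H2-Q10), for Tapbp with 23.2% (20.3% in Gm19412) and for Cd1d1 with 19.1%, all in Cd1d2. Values of these genes are therefore uncertain where reads were split or dropped. For B2m no word was shared.

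Across the 12 libraries the genes did not form a single block. As a description over libraries that share groups and depth, Pearson's r of log2(value + 1) was 0.79 for H2-K1 and H2-Q7, 0.76 for H2-K1 and B2m, 0.76 for H2-Q7 and Nlrc5 and 0.72 for H2-K1 and Nlrc5. It was 0.45 for H2-K1 and H2-D1. Tap1 ran against its partner Tap2 (-0.59) and against H2-T23 (-0.67). Outside the pathway, the genes whose pattern over the 12 libraries was most like the mean of the 10 standardised genes, among 10791 candidates, were Cxcr6 (r 0.96), Abhd18 (0.95), Il2rb (0.9), Mpp1 (0.89) and Rac2 (0.88).

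Of the other genes of class I and CD1 presentation, Ifngr1 was the only gene of the 6 lists examined to pass in any of the 6 contrasts. Ifngr1 encodes the ligand-binding chain of the interferon-gamma receptor. Its adjusted read count was 13480, 18849 and 16748 in cKO thymus against 4363, 7962 and 10129 in control thymus, and 29089, 20773 and 21150 in cKO liver against 13973, 8621 and 7051 in control liver. Every cKO library was above every control library of its tissue. Over both tissues it rose with a log2 fold change of 1.25 ± 0.22 (SE; limma adjusted p 0.0034). It passed in each of 22 alternatives, with 0.99 and an adjusted p of 0.027 without control thymus libraries 1 and 2. Within a tissue it was 1.2 in thymus (limma adjusted p 0.082) and 1.3 in liver (limma adjusted p 0.058). The summed value of 5 markers of class II antigen presenting cells, mostly Itgax, was also higher, at 2230 to 6780 in cKO thymus against 0.106 to 458 in control thymus and 1000 to 2860 in cKO liver against 184 to 1010 in control liver. Itgax averaged 3570 in cKO thymus and 150 in control thymus, and 1330 in cKO liver and 102 in control liver. Cd74 averaged 249 in cKO thymus and 3.73 in control thymus, and 238 in cKO liver and 353 in control liver. The class II chain genes were low in thymus, at 17.7 in cKO thymus and 0.417 in control thymus for H2-Aa, 1.03 in cKO thymus and 0.417 in control thymus for H2-Ab1, and 1.41 in cKO thymus and 1.71 in control thymus for H2-Eb1. H2-Aa averaged 201 in cKO liver and 57.4 in control liver, H2-Ab1 8.35 in cKO liver and 46.8 in control liver, and H2-Eb1 123 in cKO liver and 10.8 in control liver. Their part in the Ifngr1 values was not tested.

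Ifng, encoding interferon-gamma itself, averaged 4710 ± 602 in cKO liver and 1671 ± 528 in control liver (SD, n = 3 each). Every cKO liver library was above every control liver library, as for 9.99% of all tested genes. The log2 fold change in liver was 1.53 ± 1.06 (SE, limma adjusted p 0.95), from a model whose variance also takes in the thymus groups. In thymus Ifng averaged 671.9 ± 104 in cKO cells and 1267 ± 1350 in control cells (SD, n = 3 each). Of 4 genes tested in the list of interferon receptors and Ifng, 1 rose and 0 fell over both tissues, where 2.27% of all tested genes were called; over the 6 lists it was 1 of 53 tested genes.

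In the remaining lists limma called no gene in the genotype contrasts. The list of transcriptional regulators had 17 of 17 genes tested, with a median log2 fold change over both tissues of -0.08 against 0.14 for all tested genes, and 2 genes with an unadjusted p below 0.05. The immunoproteasome and proteasome activator list had 5 of 6 genes tested, with a median of -0.23 and 0 genes at that p. Psme1, a subunit of the PA28 proteasome activator, averaged 5834 ± 1110 in cKO liver and 6328 ± 1310 in control liver (SD, n = 3 each). Its log2 fold change there was -0.11. In thymus Psme1 averaged 3481 ± 633 in cKO cells and 5314 ± 3020 in control cells (SD, n = 3 each). The log2 fold change in thymus was -0.43 (limma adjusted p 0.68), and the libraries overlapped. Genes of peptide loading and trimming in the endoplasmic reticulum had 9 of 9 tested, a median of -0.02 and 1 gene at that p. That gene was not the chaperone Hspa5, which gave -0.29 over both tissues (unadjusted limma p 0.1). Hspa5 averaged 11880 ± 306 in cKO liver and 16880 ± 1490 in control liver (SD, n = 3 each). Its log2 fold change was -0.5 in liver (limma adjusted p 0.72) and -0.08 in thymus (limma adjusted p 0.92). Other class I and class I-like heavy chains had 11 of 17 tested, a median of 0.12 and 0 genes at that p; H2-Q6 averaged 9174 ± 1230 in cKO liver and 9489 ± 962 in control liver. For CD1 lipid loading and traffic, 7 of 8 were tested, with a median of 0.3 and 0 genes at that p; Npc1, which exports cholesterol from late endosomes, averaged 2711 ± 430 in cKO liver and 2159 ± 707 in control liver (SD, n = 3 each).

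**Figure D5:**
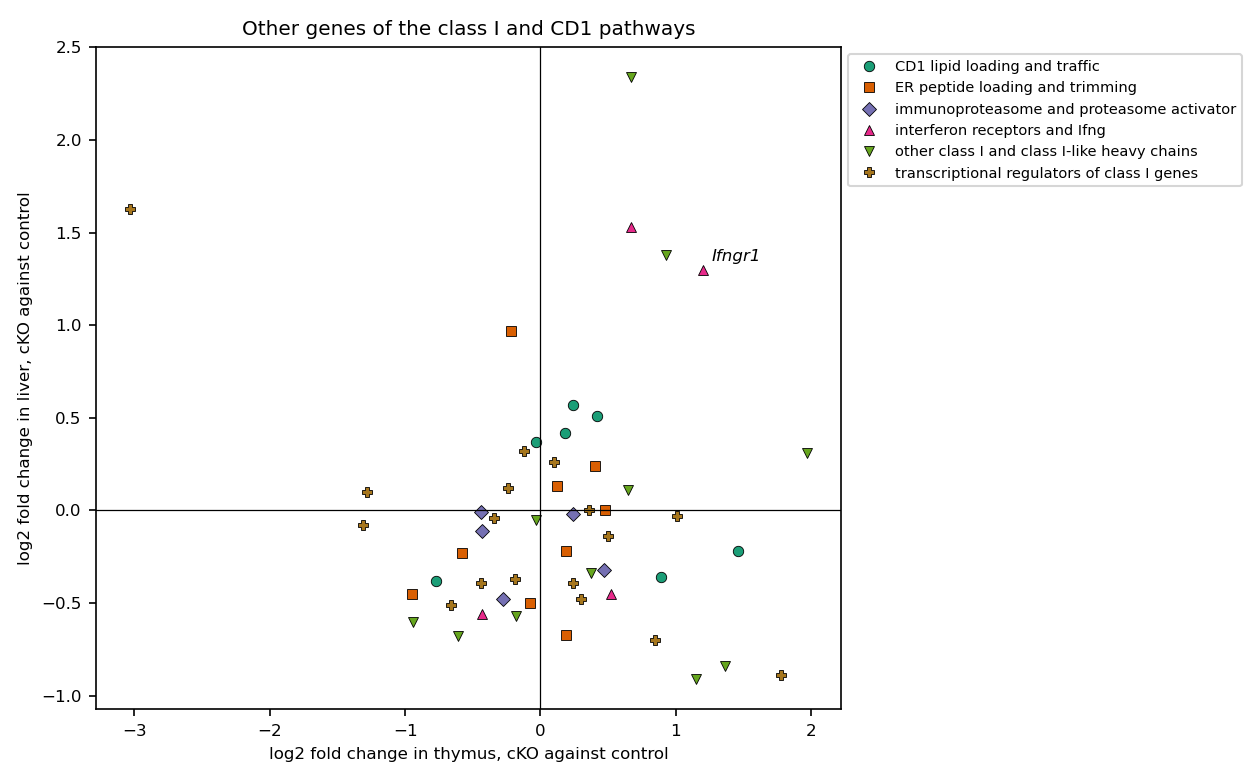
Log2 fold change, cKO against control, in thymus (x axis) and in liver (y axis) for the tested genes of 6 lists around class I and CD1 presentation; each point is a gene. Ifngr1 (1.2 in thymus and 1.3 in liver) stands to the upper right.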

How the data were processed

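RNA-seq of sorted CD1d-tetramer+ YFP+ iNKT1 cells covered 12 libraries, with RNA isolated on RNeasy columns and libraries made with the Ovation Ultralow system, per the labels' protocols. The tools listed in the submitters' processing notes, in no stated order, are HTSeq 0.6.1, STAR, TopHat2 2.1.0, Trimmomatic 0.33 and DESeq2, and the build is mm10; whether counting used strand is not stated there. The deposited table holds a non-negative signal per gene, adjusted for library size by the authors. It is printed here as the adjusted read count. A quantile adjustment of whole reads under a negative binomial model (dispersion 1.42) accounts for the values, which is inferred and not stated by the authors; inverting it placed 95.2% of values within 0.1 of a whole read and gave the depths, 3.21 M to 43.4 M reads (M, 1e6).

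Symbols and positions came from GENCODE mouse release 21 (95.4% of 14004 identifiers matched). Genes that reached a value of 10 in 3 or more libraries were tested with limma 3.58.1 (R 4.3.3) on log2(value + 1), with a mean for each of 4 groups and a variance trend (8 residual and 10.7 prior degrees of freedom), two-sided, Benjamini-Hochberg adjusted over all tested genes, threshold 0.05. The ± values marked SE and the 95% intervals come from that model; fold changes of low genes are understated by the added 1. Because the values are not counts, edgeR 4.0.16 and DESeq2 1.42.0 were run on the recovered reads as alternatives only. The scripts were tested on simulated data. Replicates are separate samples per the labels. The limma p-values measure the spread between them after each gene's variance is drawn toward the trend over all tested genes. A gene's SE can therefore differ from what its own spread would give. For Cd1d1 the SE was 1.06 in each tissue, with a within-group SD of 0.64. An SE of a difference between means of 3 libraries, taken from that SD alone, would lie below 0.64. The trend therefore widened the Cd1d1 intervals. The members, gene lists and motifs were chosen with earlier results of these data known. Every member is named; other genes are named if called, or as one of the 3 highest of their list by mean value over all libraries. Some items are not reported here. A motif match describes letters in a window and is not a binding site.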

Additional observations from a re-analysis of the deposited data

How the results depend on the processing

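Over 23 alternatives (22 for the contrast over both tissues and for the difference between tissues), members were called in 1 contrast only, liver against thymus in control cells, and the 1 call there was H2-K1. That count went to 0 with TMM scaling, with the groups compared alone, with edgeR, without the 2 libraries under 5 M reads and without control thymus libraries 1 and 2 (an alternative chosen after the data were seen), and lay between 0 and 1 when single libraries were left out. In the other 5 contrasts it stayed at 0. TMM scaling put the median of all tested genes at -0.03, against 0.24, in thymus and at -0.01, against 0.28, between tissues in control cells, and with it the log2 fold changes of H2-K1 (-0.15) and H2-D1 (-0.22) in thymus and of H2-D1 between tissues in control cells (-0.13) turned round. The cause of the changes below was not tested.

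Leaving out single libraries turned some values round. In thymus the range was -0.48 to 0.13 for H2-Q7, -0.38 to 0.09 for B2m and -0.04 to 0.22 for H2-D1. H2-T23 in thymus, at 1.04 with all libraries, ran from -0.03 to 1.75. Its lowest value came without control thymus library 1, where it had 164 reads. In liver the range was -0.15 to 0.19 for H2-D1, -0.28 to 0.07 for H2-Q7 and -0.11 to 0.2 for H2-T23. For Tap1 in control liver against control thymus it was -0.3 to 0.32. Without both low-depth libraries H2-T23 in liver was -0.01. Without control thymus libraries 1 and 2, the thymus values of H2-K1 (-0.04), H2-T23 (-0.4) and Tap1 (0.09) and the control tissue values of H2-T23 (-0.09) and Tap1 (0.48) changed sign. H2-D1 in liver was 0.01 by edgeR and by DESeq2. Deviations from the group means were compared between libraries. Between cKO and control, same-numbered libraries had r of 0.07 to 0.08 in liver and -0.1 to 0.04 in thymus. Different-numbered libraries had r of -0.06 to -0.01 in liver and -0.11 to 0.19 in thymus. Between liver and thymus within a genotype, same-numbered libraries had r of 0 to 0.07 and different-numbered libraries -0.07 to 0.05. The same-numbered values were small, so the numbers were not taken to pair the samples. Between genotypes in liver, though, the same-numbered values were above the others. Between tissues the ranges overlapped, and no same-numbered value was negative. With the replicate block the members called stayed at 1 in the control tissue contrast and 0 in the others. Depth limits Cd1d1 most, with 14 reads in its lowest library.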
